A study of Mus musculus with 3 samples.

Results

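The B cells of the ascending aorta were 171 barcodes among the 26158 that passed the cell filter in 3 droplet libraries, and 158 of them came from the mutant library without losartan. They were chosen by the 2 genes of the receptor's signaling unit: a barcode counted as a B cell when *Cd79a* and *Cd79b* together reached at least 3 of every 10000 of its unique molecular identifiers (UMIs, 1 per captured RNA molecule). It also had to hold fewer than 10 per 10000 of the complement genes *C1qa*, *C1qb* and *C1qc*, no *Cd3d* or *Cd3g*, fewer than 100 of 6 contractile genes (*Acta2*, *Myh11*, *Tagln*, *Cnn1*, *Myl9*, *Tpm2*) and fewer than 20 of *Dcn*. Because measured values of these barcodes chose them, what marks them against the rest of the aorta is given as a description with no test.

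The aortas came from male C57BL/6J mice at postnatal day 45 (P45). WT was a pool of 3 littermates, mgR a pool of 3 *Fbn1mgR/mgR* mice, and mgR-LOS a pool of 4 *Fbn1mgR/mgR* mice given 0.6 g/L losartan in drinking water from P16. *Fbn1mgR* is a hypomorphic allele carried in every cell, used as a model of Marfan syndrome with thoracic aortic aneurysm, and losartan blocks the angiotensin II type 1 receptor. Vehicle-treated mice are described in the study's methods, but the labels do not say whether the pooled mgR or WT mice drank vehicle. Mutant mice were picked for tissue work with their aortic diameters known, and red cells were lysed before loading. *Fbn1* stood at 361 UMIs per 1000000 (CPM) in the kept WT barcodes, 150 in mgR and 117 in mgR-LOS, although the makeup of the libraries also differed. The kept barcodes of these libraries held a median of 13636, 12410.5 and 8334 UMIs, and all deposited barcodes together held 83338726, 123956320 and 121436873. With 1 pool per condition no spread between mice could be estimated, so no test between conditions was made; all intervals below are exact 95% intervals that cover counting error only.

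A B cell senses antigen through a membrane immunoglobulin, built of heavy and light chains, that signals through the *Cd79a* and *Cd79b* chains. Naive cells carry IgM and IgD, present antigen on MHC class II molecules and home to follicles along the chemokine *Cxcl13*, whereas activated cells can switch isotype or become plasma cells that secrete antibody in bulk. In arteries, B cells are known mainly from the adventitia and the surrounding fat, and the innate-like B-1 lineage is known for secreting IgM.

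The markers listed for the label were present. Of 10 B cell genes, among them *Cd79a*, *Cd79b*, *Igkc*, *Ighm*, *Ms4a1* and *Pax5*, the median barcode carried 8 in WT, 8 in mgR and 6 in mgR-LOS. Without *Cd79a* and *Cd79b*, which the rule had used, the median barcode carried 6, 6 and 4.5 of the other 8, and at least 4 of these were seen in 5 of 5 WT, 153 of 158 mgR and 6 of 8 mgR-LOS barcodes. *Ms4a1*, which encodes the surface antigen CD20 and was not part of the rule, had a UMI in 145 of the 158 mgR barcodes. After thinning every mgR barcode to 1000 UMIs, 63.9% still had an *Ms4a1* UMI (interval 55.9 to 71.4%), against 0 of 128 T cells and 0 of 818 macrophages, with intervals that reached 2.84 and 0.450%. Those T cells and macrophages had been chosen to hold no *Cd79a* or *Cd79b* UMI, which also removes barcodes with stray B cell RNA.

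Genes of other lineages were read in the mgR B cells, although the rule itself had set *Cd3d* and *Cd3g* to 0 and capped the complement genes, the contractile genes and *Dcn*. Of 13 T cell genes, 9 were at 0, 2 of them through the rule and among the others *Cd3e*, *Cd4*, *Cd8a* and *Trbc2*, and the list summed to 19 UMIs over the 158 barcodes. The NK list of 8 genes summed to 54 UMIs with *Gzma* at 20, and the neutrophil list of 9 genes to 61 UMIs with *S100a8* at 33. Red cell, platelet and mast cell lists summed to 28, 4 and 2 UMIs. The macrophage list was the largest immune exception: all 12 genes were seen, at 755 UMIs in all, of which 409 were *Lyz2*, and 10 barcodes held at least 10 UMIs of it. Contractile RNA was spread over every barcode, with 1818 UMIs of 8 smooth muscle genes and *Acta2* the most abundant at 766; its part in the results was not tested. The fibroblast list summed to 602 UMIs with *Col3a1* at 244, and the endothelial list to 87 with *Pecam1* at 64. The dendritic list summed to 92 with *Cd209a* at 51, and the lymph node stroma list to 96 with *Cr2*, also a B cell gene, at 51. The plasmacytoid dendritic list stood at 2894 UMIs, but 2197 of these were *Ly6d*, which B cells also express, and *Siglech* was at 0.

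Of the mgR-LOS barcodes, 2 of 8 carried few B cell genes or many of another lineage. The barcode of 2910 UMIs met the rule with 1 *Cd79a* UMI and held no immunoglobulin, *Ms4a1* or *Cd74* UMI. The barcode of 9434 UMIs held 8 *Cd79a* and 26 *Iglc1* UMIs together with 34 UMIs of *Cldn5*, an endothelial junction gene, and 12 of *Cd93*. The share and the summed levels of mgR-LOS are given with and without these 2.

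In mgR the values nearest the threshold were 3.11 and 3.16 *Cd79a* plus *Cd79b* UMIs per 10000 inside it, and 2.46 and 1.40 outside it; the median inside was 24.1. The lowest value inside was 13.8 in WT and 3.44 in mgR-LOS, and the highest outside was 1.95 and 2.05. The *Cd79* threshold was reached by 201 kept mgR barcodes, and the limits on other lineages removed 43 of these, 25 of them through the contractile genes, 18 through complement genes, 16 through *Dcn* and 9 through *Cd3d* or *Cd3g*, with some counted under several. Cell barcodes were rarely shared between libraries, with 22 in common between WT and mgR, 29 between WT and mgR-LOS and 46 between mgR and mgR-LOS; 2 of the last were B cells in 1 of the libraries.

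B cells made up 0.0933% of the kept WT barcodes (5 of 5361, interval 0.0303 to 0.218%). In mgR the share was 1.96% (158 of 8076, 1.67 to 2.28%), and in mgR-LOS it was 0.0629% (8 of 12721, 0.0272 to 0.124%), or 0.0472% without the 2 doubted barcodes. Fewer than 3 immunoglobulin UMIs or any *Cldn5* UMI, which mark those 2, were also seen in 4 of the 158 mgR barcodes and in none of WT. The mgR share was thus 21.0 times that of WT (8.80 to 65.5) and 31.1 times that of mgR-LOS (15.4 to 73.3), while the WT and mgR-LOS intervals overlapped. Without the barcodes so marked in every library, the ratios were 20.4 (8.57 to 63.9) and 40.4 (18.2 to 112). With called doublets removed, which leaves 3 B cells in mgR-LOS, 2 of them the doubted barcodes, they were 19.97 (8.37 to 62.4) and 74.1 (24.9 to 364). These ratios compare 3 libraries, and the number of mice behind each is 3 or 4.

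The other immune cells also took larger shares of the kept barcodes in mgR. T cells, barcodes with at least 3 *Cd3d* or *Cd3g* UMIs per 10000, made up 0.373% of WT, 1.58% of mgR and 0.574% of mgR-LOS. Macrophages, with at least 30 complement UMIs per 10000, made up 1.51, 10.1 and 3.94%. The mgR share of T cells was 4.25 times that of WT (2.64 to 7.19) and 2.76 times that of mgR-LOS (2.06 to 3.73). For macrophages the ratios were 6.71 (5.34 to 8.54) and 2.57 (2.30 to 2.88). The B cell intervals lay above those of T cells in both comparisons and above that of macrophages for mgR over mgR-LOS. For mgR over WT the B cell interval began at 8.80, near the macrophage upper limit of 8.54, and with called doublets removed it began at 8.37. For every 100 T cells there were 25 B cells in WT, 123 in mgR and 11 in mgR-LOS. The doublet score called 0 of 5 B cells in WT, 11 of 158 in mgR and 5 of 8 in mgR-LOS.

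**Figure D1:**
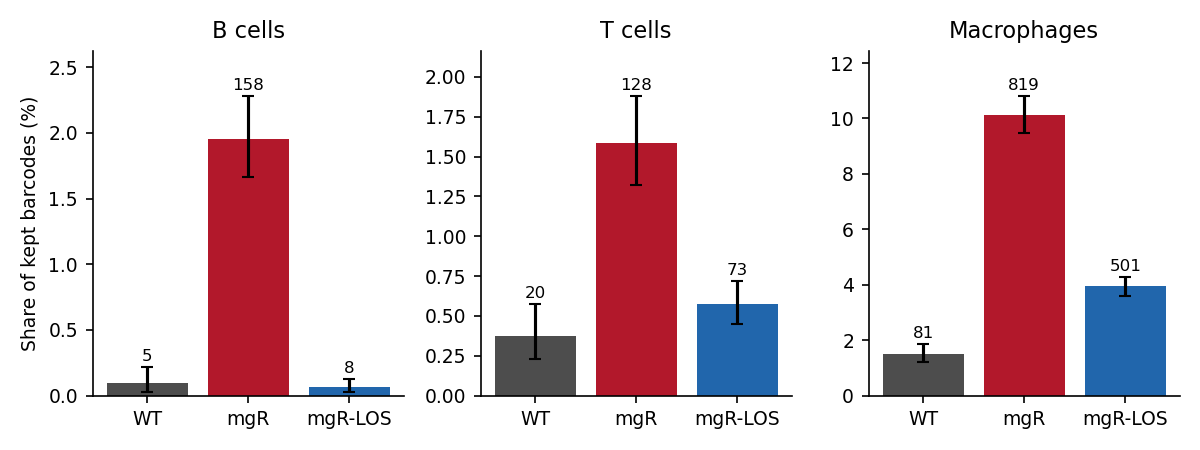
Share of kept barcodes (%, linear axes from 0) that were B cells, T cells or macrophages in each library, with the exact 95% binomial interval and the number of barcodes above each bar. In all panels mgR stands highest, and the B cell bars of WT (5 barcodes) and mgR-LOS (8 barcodes) are small beside that of mgR (158 barcodes).

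Among kept barcodes with a UMI of *Ptprc*, the pan-leukocyte gene, B cells were 2.86% in WT (4 of 140), 7.86% in mgR (139 of 1769) and 0.478% in mgR-LOS (4 of 836). The WT interval, 0.784 to 7.15%, overlapped both that of mgR, 6.65 to 9.21%, and that of mgR-LOS, 0.131 to 1.22%; the intervals of mgR and mgR-LOS lay apart. By the same denominator T cells were 14.3, 6.50 and 6.94%, and macrophages 50.7, 42.5 and 46.9%, both lowest in mgR. The mgR and mgR-LOS intervals overlapped for both, however, and for macrophages the mgR interval also overlapped that of WT. B cells of the libraries differed in depth, with a median of 4353 UMIs in WT, 6247 in mgR and 2318 in mgR-LOS. Summed, the WT B cells held 22497 UMIs and those of mgR-LOS 25823, against 1284317 in mgR, so a gene without a UMI could lie as high as 133 CPM in WT and 116 CPM in mgR-LOS but only 2.34 CPM in mgR.

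Against the other 7918 kept barcodes of the mgR library, the B cells were marked by their receptor and its transcription factors. Of 3507 genes with at least 50 CPM on either side, 248 were at least 4-fold higher in B cells, 7.07% of the genes, and 875 at least 4-fold lower, 25% of the genes. B cells are rich in ribosomal and immunoglobulin RNA, and without the mitochondrial, ribosomal, globin and immunoglobulin genes the counts were 486 higher and 841 lower of 4642. Of the genes called in either direction, the higher share went from 22.1 to 36.6%. That scaling moved the median log2 ratio of 3384 shared genes up by 0.55, from -0.52 to 0.03. The ratio was 444 for *Cd79a* and 243 for *Cd79b*, which the rule had used. It was 420 for *Ms4a1* (367 to 482), 410 for *Pou2af1* (304 to 563), a coactivator of octamer-binding factors, 387 for *Fcmr* (306 to 494), a receptor for IgM, 251 for *Pax5* (183 to 349), which maintains B cell identity, and 219 for *Ly6d* (201 to 238).

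Immunoglobulin genes were also among the 15 highest ratios at 100 CPM or more. They were *Ighd* (338), the light chain constant genes *Iglc1* (377), *Iglc2* (279) and *Iglc3* (230), and the kappa variable genes *Igkv14-100*, *Igkv4-72* and *Igkv2-112*. *Igkv14-100* had 222 UMIs in 1 B cell and none elsewhere, which puts it at least 5681-fold higher, with the floor at 3 UMIs over all other barcodes. *Igkv4-72* had 1 UMI elsewhere and *Igkv2-112* had 2, so their ratios of 14202 and 12052.5 have wide intervals, 2518 to 563942 and 3309 to 99958. In B cells, 183 of the 185 *Igkv4-72* UMIs and all 314 *Igkv2-112* UMIs lay in 1 barcode each, among those rich in antibody RNA described below.

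The B cell lists, taken by role, are set against the 7.07% of all genes tested that were at least 4-fold higher and the 25% that were at least 4-fold lower. A gene under 50 CPM in the other kept barcodes was tested through the B cells alone, so counts of such genes called higher are no result about a list. This holds for every transcription factor and signaling gene called higher below, and for every surface antigen called higher except *Cd53* and *Ly86*. Of 19 receptor and surface antigens other than the 2 rule genes, 17 were tested, 13 were at least 4-fold higher and 1, the tetraspanin *Cd81*, was lower at 0.20 times the level elsewhere, or 0.29 times and so not called under the other scaling. Their median log2 ratio was 4.43, against -0.47 over all genes tested. Of 15 transcription factors tested, 10 were at least 4-fold higher, against 7.07% of all genes, with a median log2 ratio of 3.09. *Spib*, an Ets factor of lymphoid cells, stood at 96.4 times and *Bcl11a* at 62.8 times the level elsewhere, whereas *Ebf1* reached 2.18 times, at 451 CPM in B cells, 165 in smooth muscle barcodes and 207 over all other barcodes. Of 15 signaling genes tested, 13 were at least 4-fold higher, against the same 7.07% (median log2 ratio 2.73), led by the scaffold *Bank1* at 119 times and followed by *Ralgps2* at 23.0 and the adaptor *Blnk* at 14.4; the kinases *Syk* and *Lyn* stood at 8.7 and 4.4 times.

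*Cd74* and the class II chains were high in both B cells and macrophages. Of 11 antigen presentation genes tested, 10 were at least 4-fold higher in B cells than in the other barcodes, against 7.07% of all genes, with a median log2 ratio of 2.85. Of the 10, only *Cd74*, *H2-Aa*, *H2-Ab1* and *H2-Eb1* held at least 50 CPM in the other kept barcodes. The rest were tested through the B cells alone. *Cd74*, the invariant chain that guards the MHC class II groove, stood at 7238 CPM (7092 to 7387) in mgR B cells, 5939 in macrophages, 1109 in T cells and 22.4 in smooth muscle. The 3 class II chains *H2-Aa*, *H2-Ab1* and *H2-Eb1* summed to 8107 CPM in B cells and 7067 in macrophages. Of the genes of peptide loading, *H2-Ob* stood at 204 CPM in B cells and 4.8 in macrophages, *H2-Oa* at 113 and 1.8 and *H2-DMb2* at 294 and 4.9. *H2-DMa* stood closer, at 307 and 218 CPM, and *H2-DMb1* ran the other way, at 100.4 and 158 CPM.

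**Figure D2:**
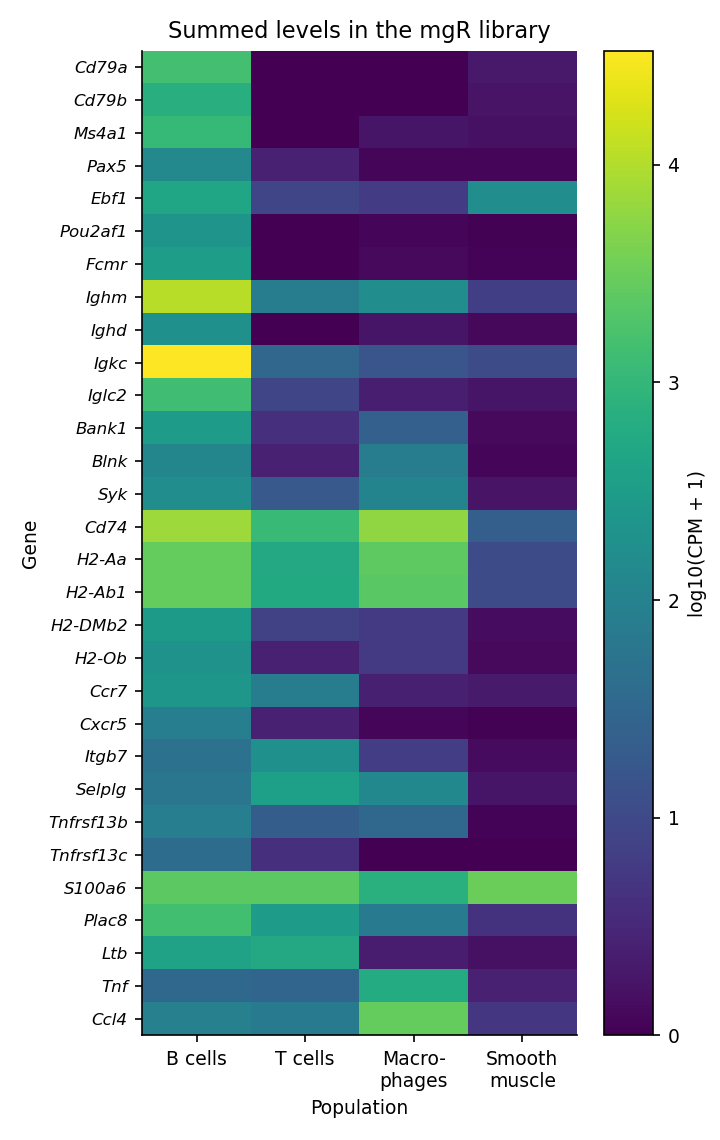
Summed level of selected genes in the B cells, T cells, macrophages and smooth muscle barcodes of the mgR library, as log10(CPM + 1), by color. Receptor genes and their transcription factors are brightest in B cells, *Cd74* and the class II chains in B cells and macrophages, and *Ebf1* and *S100a6* also in smooth muscle.

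Of the 15 homing genes, 10 were tested and 6 were at least 4-fold higher, against 7.07% of all genes. All 6 held under 50 CPM in the other kept barcodes and were tested through the B cells alone. Their count is thus no result about the list. The follicle receptor *Cxcr5* stood at 86.4 CPM in mgR B cells and at most 1.6 in T cells, macrophages or smooth muscle. The lymph node homing receptor *Ccr7* stood at 251 CPM, against 79.4 in T cells. The integrin *Itgb7* and the selectin ligand *Selplg* ran the other way, at 47.5 and 57.6 CPM in B cells and 186 and 361 in T cells. Of 12 survival genes, 7 were tested and 1, *Tnfrsf13b*, was at least 4-fold higher, at 85.6 CPM, against 7.07% of all genes. Under the other scaling 3 of 9 were. *Tnfrsf13b* also held under 50 CPM in the other kept barcodes. This gene encodes TACI, a receptor for BAFF and APRIL, and the BAFF receptor *Tnfrsf13c* stood at 38.2 CPM.

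The ligands of these receptors were read in the other kept barcodes. *Cxcl13*, the ligand of *Cxcr5*, differed widely between libraries: it had 3 UMIs in 3 WT barcodes, 2170 UMIs in 130 mgR barcodes and 48 UMIs in 30 mgR-LOS barcodes, or 0.0429, 22.01 and 0.432 CPM. In mgR, macrophages held 795 of these UMIs in 14 barcodes, 533 of them in 1 barcode. *Tnfsf13b*, which encodes BAFF, went from 2.03 CPM in WT to 12.3 in mgR and 7.57 in mgR-LOS over all these barcodes, but within macrophages it stood at 24.9, 15.4 and 27.9 CPM. *Ccl21a*, a *Ccr7* ligand, stood at 18.5, 66.5 and 24.6 CPM and *Il6* at 24.1, 118 and 59.4 CPM. Within macrophages *Il6* stood at 43.2, 33.2 and 24.2 CPM, with 29 of the 33 WT UMIs in 1 barcode. The B cells themselves held no *Cxcl13* or *Tnfsf13b* UMI in any library. *Ccl19*, the other *Ccr7* ligand, stood at 51.3, 49.3 and 35.1 CPM. *Cxcl13*, *Tnfsf13b*, *Ccl21a* and *Il6* over all these barcodes were thus highest in mgR, like the B cell share, and higher in mgR-LOS than in WT, where the B cell shares had overlapping intervals; their part in the share was not tested.

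Nearly all mgR B cells were unswitched. A heavy chain was assigned where it had at least 2 UMIs and at least 90% of a barcode's heavy chain constant UMIs: 149 of 158 barcodes (94.3%, 89.5 to 97.4%) had *Ighm* or *Ighd*, 1 had a switched isotype (0.633%, 0.0160 to 3.48%), and 8 had none assigned. The switched barcode held 9 UMIs of *Igha* and no *Ighm*. A further barcode held 10 UMIs of *Ighg2b* beside 11 of *Ighm*. *Ighg1* and *Ighe* had no UMI at all. All 5 WT barcodes and 7 of 8 mgR-LOS barcodes were assigned to IgM or IgD, and none to a switched isotype. The background was similar for both chains in T cells and higher for the heavy chain in macrophages. At 1000 UMIs, 91.8% of mgR B cells, 5.47% of T cells and 1.47% of macrophages had an *Igkc* UMI, and 81.0, 6.25 and 14.5% had an *Ighm* UMI.

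Most barcodes carried RNA of both light chain classes. Kappa, encoded by *Igkc*, and lambda, encoded by *Iglc1*, *Iglc2* and *Iglc3*, are known to exclude each other as protein in nearly all B cells. By the same 90% rule, kappa was assigned in 27 of 158 mgR barcodes (17.1%, 11.6 to 23.9%) and lambda in 9 (5.70%, 2.64 to 10.5%), whereas 122 were left without a call. At least 2 UMIs of each class were seen in 141 barcodes (89.2%). The kappa share of light chain UMIs had a median of 76.8% with an interquartile range of 65.8 to 87.3%. More than 50% of the light chain UMIs were kappa in 136 barcodes, fewer than 50% in 19. *Iglc2* stood at 1369 CPM in mgR B cells and at 4.91 in the other 7918 kept barcodes, of which 132 had a UMI. The lambda constant genes are near copies of each other, so reads can be split between them; the source of the mixed chains was not tested.

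The repertoire was varied as far as the 3-prime reads reached it. At least 1 of 346 annotated V genes had 2 or more UMIs in 78 of the 158 mgR barcodes, and 39 different kappa V genes were seen at that level. The most frequent were *Iglv1* in 13 barcodes, *Igkv1-117*, *Igkv1-135* and *Iglv3* in 6 each, and *Igkv12-89* and *Igkv10-96* in 5 each, tied for the fifth place. Of the 13 *Iglv1* barcodes, 8 were low in *Jchain*, the gene described next, and of the 6 *Iglv3* barcodes, 2 were. Among the 152 barcodes low in *Jchain*, 52 had a single kappa V gene and 8 more than 1, over 32 genes, and no kappa V gene was seen in more than 6 barcodes.

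A small set of mgR barcodes stood apart by antibody RNA. *Jchain*, which joins IgM or IgA into polymers, had 571, 837, 854, 1011, 1118 and 1254 UMIs in 6 of the 158 B cells, and at most 13 in the other 152, of which 147 had none. These 6 barcodes, 3.8% of the mgR B cells (1.41 to 8.08%), held between 46.1 and 53.6% of their UMIs in immunoglobulin genes, against a median of 1.09% in the rest. *Igkc* ran from 3414 to 8276 UMIs in each of them, with a median of 36 and a maximum of 219 elsewhere, and *Ighm* from 1200 to 2630, with a maximum of 74 elsewhere. The 6 barcodes gave 85.0% of all *Igkc* and 81.4% of all *Ighm* UMIs of the mgR B cells, whose summed levels were 33376 and 11068 CPM with them and 5414 and 2230 CPM without them. No barcode of WT or mgR-LOS, kept or not, had more than 1 *Jchain* UMI.

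**Figure D3:**
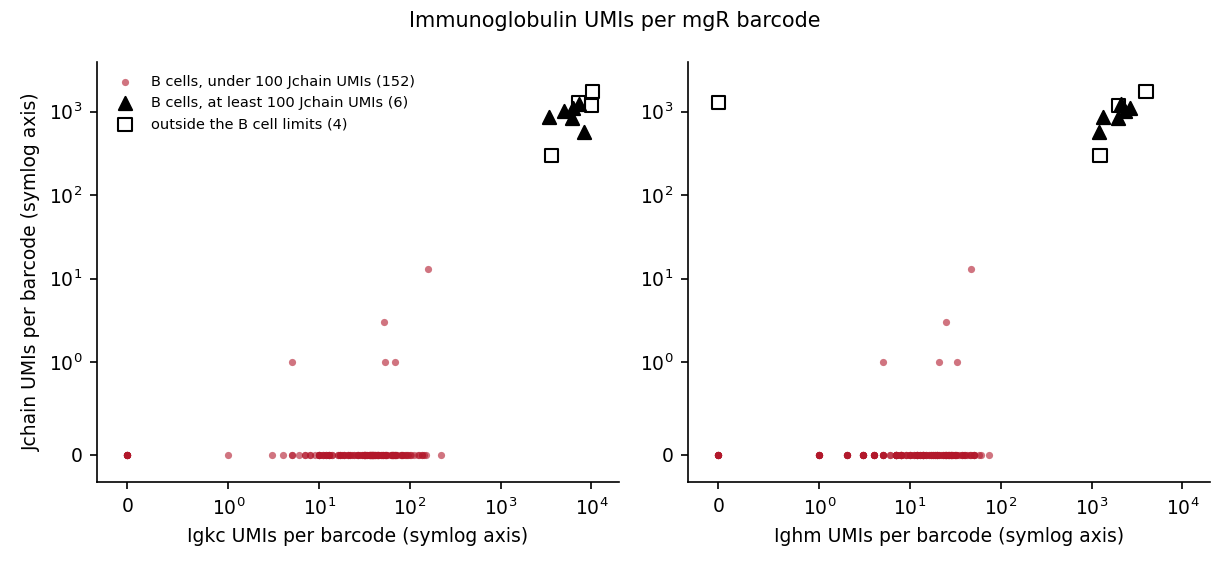
*Jchain* UMIs against *Igkc* (left) and *Ighm* UMIs (right) per mgR barcode, on axes that are linear up to 1 and logarithmic above. The 6 B cells and 4 further barcodes with at least 100 *Jchain* UMIs lie apart from the other 152 B cells, of which the highest has 13; 1 of the 4 has no *Ighm* UMI.

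Most genes of the plasma cell list were also higher in them. *Xbp1*, which drives the secretory program, stood at 1396 CPM (1174 to 1649) in the 6 barcodes and 39.7 in the rest, and *Tnfrsf17*, the receptor BCMA, at 261 CPM with a UMI in all 6 and none in the rest. *Sdc1*, encoding CD138, stood at 171 against 0.84 CPM, *Prdm1*, the factor that ends the B cell program, at 191 against 16.9, and the folding enzyme *Txndc5* at 1276 against 56.6. *Pax5*, *Ebf1*, *Bach2*, *Cd22* and *Ighd* had no UMI, and *H2-Aa* had 1, whereas the other B cells held 489 CPM of *Ebf1* and 3066 of *H2-Aa*. *Irf4* did not follow, at 90.4 CPM (41.3 to 172) and 147 (126 to 170). All 6 carried IgM, with *Igha* at 0 or 1 UMI. The artificial-neighbor doublet score called all 6 as doublets, and their UMI totals ran from 10718 to 19438.

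The same threshold of 100 *Jchain* UMIs, chosen after the values were seen, found 4 more kept mgR barcodes that were not B cells by the rule. They had 4.71, 0.361, 0.895 and 2.46 *Cd79* UMIs per 10000, so 3 lay under the threshold, and the first was removed by complement genes at 10.6 per 10000. One of them held 2474 *Igha* and no *Ighm* UMIs; it also had complement genes at 19.5 per 10000 and 255 *Cd74* UMIs. The rule therefore took 6 of the 10 barcodes that were rich in antibody RNA, and the inner values closest to its edge, 3.11 and 3.16, belong to 2 of these 6.

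V genes were read at high counts in these 10 barcodes, and some recurred. The kappa gene was *Igkv8-27* in 2 of the 6 B cells, with 251 and 225 UMIs, and *Igkv4-72* (183 UMIs), *Igkv4-58* (118), *Igkv2-112* (314) and *Igkv14-100* (222) in the others. The *Igkv14-100* barcode also held 97 UMIs of a second kappa gene, *Igkv4-57-1*. Both *Igkv8-27* barcodes carried the heavy gene *Ighv1-53*, with 21 and 19 UMIs. Outside the rule, a barcode with 241 *Igkv10-96* and 172 *Igkv8-27* UMIs also carried *Ighv1-53* at 20 UMIs. The V pair *Igkv15-103* and *Ighv7-1* appeared in 2 barcodes outside the rule, with 440 and 39 UMIs in one and 158 and 11 in the other. The remaining heavy genes were each seen in 1 barcode, such as *Ighv1-74* at 40 and *Ighv1-69* at 35 UMIs.

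The barcodes with *Ighv1-53* also held UMIs of *Ighv1-55*, at 9, 10 and 4, and 1 of them held 2 UMIs of *Igkv8-30*. The germline sequences are shown because near copies can share reads, so these minor counts are uncertain. Each run is a stretch of the V exon in transcript orientation from GENCODE M21 on GRCm38, in a gap-free alignment, with capitals at the bases that differ from the partner. *Ighv1-53* (chr12:115158413-115158706, minus strand) and *Ighv1-55* (chr12:115208105-115208398, minus strand) differ at 14 bases and are 95.2% identical. *Igkv8-27* (chr6:70171825-70172118, minus strand) and *Igkv8-30* (chr6:70117082-70117375, minus strand) differ at 28 and are 90.5% identical.
Ighv1-53: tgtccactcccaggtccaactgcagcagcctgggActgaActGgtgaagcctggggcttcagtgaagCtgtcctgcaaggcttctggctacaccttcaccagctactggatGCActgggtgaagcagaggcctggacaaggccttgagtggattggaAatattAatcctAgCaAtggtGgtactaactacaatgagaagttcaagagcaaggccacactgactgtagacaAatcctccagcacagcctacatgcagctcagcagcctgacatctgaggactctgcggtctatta
Ighv1-55: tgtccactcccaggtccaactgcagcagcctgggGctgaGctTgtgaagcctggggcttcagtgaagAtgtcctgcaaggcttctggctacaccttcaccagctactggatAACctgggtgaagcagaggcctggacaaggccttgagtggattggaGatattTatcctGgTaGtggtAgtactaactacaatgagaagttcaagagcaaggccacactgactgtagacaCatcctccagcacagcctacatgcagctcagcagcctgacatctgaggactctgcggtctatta
Igkv8-27: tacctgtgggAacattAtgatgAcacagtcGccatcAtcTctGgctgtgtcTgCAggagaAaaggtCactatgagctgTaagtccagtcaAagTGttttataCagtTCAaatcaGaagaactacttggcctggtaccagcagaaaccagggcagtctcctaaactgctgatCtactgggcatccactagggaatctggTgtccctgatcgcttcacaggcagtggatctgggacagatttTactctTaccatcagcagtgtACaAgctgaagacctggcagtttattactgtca
Igkv8-30: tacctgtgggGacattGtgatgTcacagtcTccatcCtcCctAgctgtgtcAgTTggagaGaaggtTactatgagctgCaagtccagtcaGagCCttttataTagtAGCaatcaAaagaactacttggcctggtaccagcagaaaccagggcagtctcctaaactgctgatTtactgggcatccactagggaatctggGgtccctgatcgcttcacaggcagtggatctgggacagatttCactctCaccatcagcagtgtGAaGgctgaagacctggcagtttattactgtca

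All of these windows are coding sequence of the V exon. *Igkv8-30* had at least 2 UMIs in 4 mgR B cells and *Igkv8-27* in 3, with 14 and 478 UMIs in all. The counts do not include the joined junction, so barcodes with the same V pair cannot be told to come from the same clone.

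Some mgR B cells were cycling. At least 3 UMIs of *Mki67* and *Top2a*, genes of proliferating cells, were seen in 10 of 158 barcodes (6.33%, 3.08 to 11.3%), with 1 to 20 UMIs of *Mki67* and 5 to 23 of *Top2a*, and in none of the WT or mgR-LOS barcodes. A further 13 mgR barcodes had 1 or 2. The 10 were deep, with a median of 18625.5 UMIs against 6200 in the rest; at 1000 UMIs, 5.70% of B cells, 7.03% of T cells and 6.48% of macrophages had a UMI of either gene. None of the 10 was rich in *Jchain*, and 2 were called doublets. In them *Birc5* stood at 475 CPM, *Stmn1* at 1063 and *H2afz* at 1714, against 3.94, 8.87 and 340 in the others low in *Jchain*. The germinal center factor *Bcl6* had 1 UMI in the 10 and 37 in the others. *Vpreb3* was higher in the 10, at 235 CPM (168 to 320) against 48.3 (35.7 to 63.9), and *S100a6* lower, at 552 against 3007.

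*S100a6*, the most abundant gene of the B-1 list, varied widely among the mgR B cells, from 0 to 220 UMIs with a median of 6. To see what varied with it, the 152 barcodes low in *Jchain* were ordered by *S100a6* per 10000 UMIs and split into a low, a middle and a high set of 51, 51 and 50, a split chosen after the values were seen. The low set lay between 0 and 5.47 per 10000 and the high set between 20.6 and 159. *Cd79a* stood at 1541, 1453 and 1671 CPM from the low to the high set (ratio 1.08, 0.968 to 1.22), whereas *Cd79b* stood at 679, 740 and 877 and *Ms4a1* at 871, 1175 and 1373 (ratio 1.58, 1.37 to 1.82).

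Genes of follicular B cells were lower in the high set. *Ighd* went from 360 to 216 to 88.7 CPM, a ratio of high over low of 0.247 (0.169 to 0.354), and *Fcer2a*, encoding CD23, from 223 to 95.1 to 27.5 CPM (ratio 0.123, 0.0625 to 0.224). The complement receptor *Cr2* (ratio 0.403), the chemokine receptor *Ccr7* (0.527) and the factors *Mef2c* (0.427) and *Ebf1* (0.501) were lower too, with intervals below 1. *Cxcr5* ran the other way at a ratio of 1.89 (1.09 to 3.45).

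The cytoskeletal and adhesion genes were higher in the high set. *Crip1* went from 757 to 1666 to 2707 CPM (ratio 3.58, 3.12 to 4.12), *Klf2*, a factor of quiescence and trafficking, from 220 to 483 to 773 (3.51), *Cd44* from 27.9 to 123 to 146 (5.22) and *Ahnak* from 58.9 to 383 to 340 (5.77). Of the other B-1 genes, *Cd9* (3.36), *Plscr1* (2.62) and *Zbtb32* (3.21) had intervals above 1, as did *Itgam*, with no UMI in the low set and 14 in the high set, and *Cd5* (0.682), *Bhlhe41* (1.53), *Ctla4* (1.46), *Cd300lf* (1.499) and *Spn* (2.95) had intervals that held 1. *Cd5* was nearly absent, with a UMI in 5 of the 158 barcodes. *Ighm* (1.72) was higher in the high set, and *Mki67* lower (0.170).

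**Figure D4:**
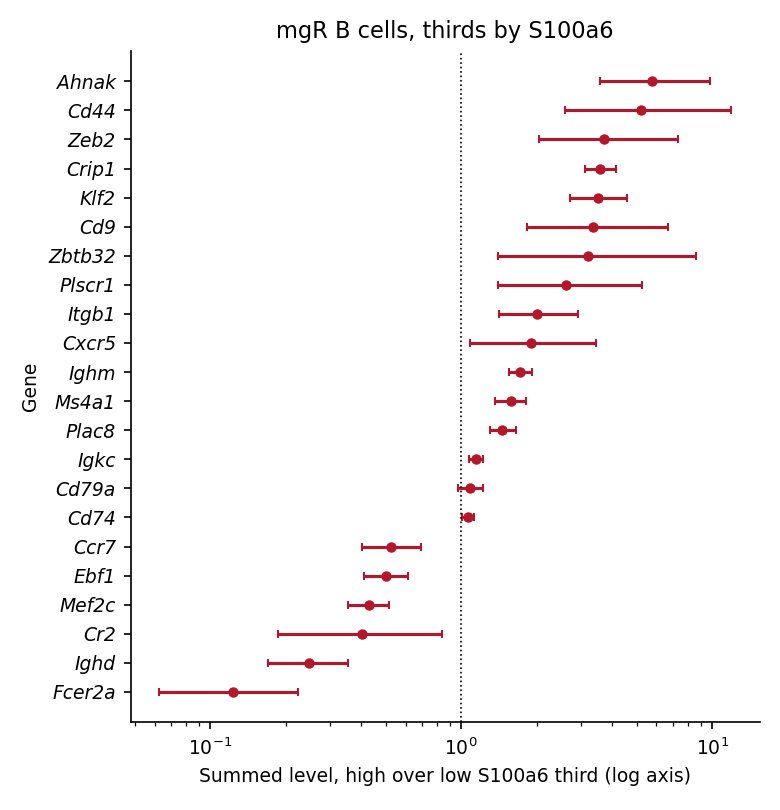
Ratio of the summed level in the set of mgR B cells with most *S100a6* (50 barcodes) over the set with least (51 barcodes), on a log axis, with exact 95% intervals for counting error. Of the genes plotted, which leave out *Mki67* (0.170) and *Cd80* (10.2), *Fcer2a* (0.123) and *Ighd* (0.247) stand lowest, *Cd74* and *Cd79a* lie near 1, and *Cd44* (5.22) and *Ahnak* (5.77) stand highest.

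The sets differed in depth, with medians of 4461, 6153 and 9192.5 UMIs. Thinned to 2000 UMIs each, a depth 4 barcodes did not reach, *Ighd* was seen in 22 of 38 barcodes without *S100a6* (57.9%, 40.8 to 73.7%), in 27 of 64 with 1 to 4 *S100a6* UMIs (42.2%) and in 8 of 46 with at least 5 (17.4%, 7.82 to 31.4%). *Fcer2a* was seen in 26.3, 25 and 4.35% of the same sets. Smooth muscle barcodes are also rich in *S100a6*, at 3156 CPM, and *Acta2*, which the rule had capped, had a ratio of 1.07 between the sets (0.895 to 1.28). The myeloid signaling gene *Tyrobp* was higher in the high set (4.06, 2.57 to 6.70), and the macrophage list summed to 93.0, 1491 and 300 CPM from low to high; its part in the order was not tested.

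The 13 B cells of WT and mgR-LOS were too few for ratios across genes and are described one at a time. In WT, the 5 barcodes held 1, 9, 14, 15 and 9 *Cd79a* UMIs and 10, 2, 0, 15 and 3 *Ms4a1* UMIs. *Igkc* led the light chains in 3 barcodes, with 57, 38 and 31 UMIs, and the other two had none of it, with 75 *Iglc1* and 27 *Iglc2* UMIs in one and 5 and 33 in the other. These 3 barcodes, which also held lambda UMIs and were left without a light chain call, held *Ighd* (1, 1 and 5 UMIs) and *Fcer2a* (4, 1 and 2), and the 2 lambda barcodes held neither. *Cd74* stood at 24, 47, 39, 15 and 0 UMIs.

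*Vpreb3*, a gene of immature and transitional B cells, stood higher in the summed UMIs of these libraries. In WT it had 3, 0, 2, 3 and 8 UMIs. The last of these barcodes, with 2233 UMIs in all, also held 1 *Rag1* UMI, and *Rag1* is needed for the rearrangement of immunoglobulin genes. In mgR-LOS, *Vpreb3* had 9 and 4 UMIs in 2 barcodes and none in 6, and the barcode with 9 also held 1 *Rag1* UMI and no *Cd74*. In mgR it was seen in 35 of 158 barcodes, with a median of 0 and a highest count of 14. Summed, it stood at 711 CPM in WT (407 to 1155), 69.3 in mgR (55.7 to 85.3) and 503 in mgR-LOS (268 to 861), or 964 without the 2 doubted barcodes. Of the 6 barcodes then left in mgR-LOS, 5 were called doublets, both *Vpreb3* barcodes among them. With called doublets removed, *Vpreb3* had no UMI in 3 mgR-LOS barcodes, 2 of them the doubted ones, which allows up to 207 CPM. It then stood at 64.5 CPM in mgR and 711 in WT. The surrogate light chain genes *Vpreb1* and *Igll1* and the enzyme *Dntt* had no UMI in any B cell.

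**Figure D5:**
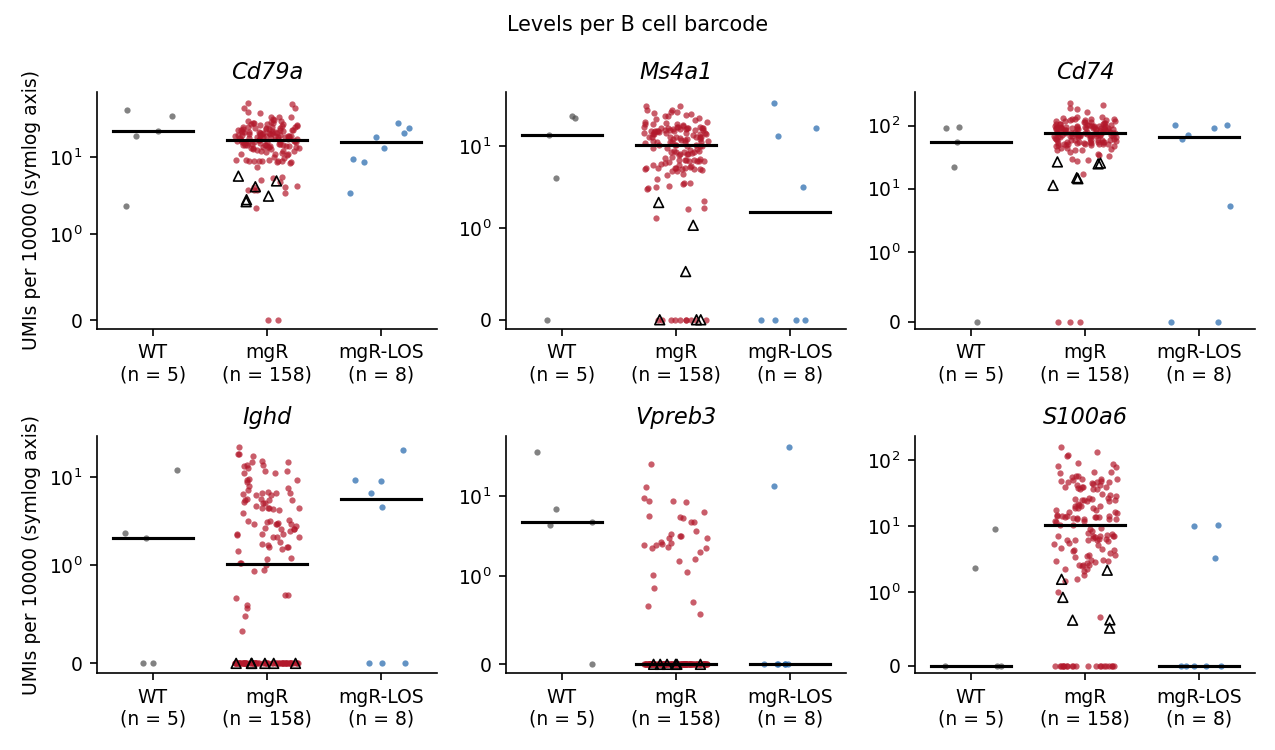
Level of 6 genes in every B cell barcode of each library, in UMIs per 10000 of the barcode, on axes that are linear up to 1 and logarithmic above. Lines mark medians and open triangles the 6 mgR barcodes with at least 100 *Jchain* UMIs; *S100a6* has a median of 10.5 in mgR and 0 in WT and mgR-LOS, and *Vpreb3* has its highest median, 4.76, in WT.

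*S100a6* and *Plac8* were lower in these barcodes than in mgR. *S100a6* had 4, 0, 1, 0 and 0 UMIs in WT, and in mgR-LOS 10, 3 and 1 UMIs in 3 barcodes and none in 5; the 10 and the 3 belong to the 2 doubted barcodes. Summed, it stood at 222 CPM in WT (72.2 to 519), 2457 in mgR (2372 to 2544) and 542 in mgR-LOS (296 to 910), or 74.2 (1.88 to 413) without those 2. *Plac8* stood at 489, 1442 and 116 CPM, or 148 in mgR-LOS without those 2. Smooth muscle RNA was at 1600 CPM in the WT, 1416 in the mgR and 3563 in the mgR-LOS B cells over its 8 genes, or 4600 without those 2.

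List sums gave the rest of the picture across libraries. The 3 class II chains summed to 6756 CPM in WT (5725 to 7920), 8107 in mgR (7952 to 8264) and 3137 in mgR-LOS, or 6009 (4772 to 7469) without the 2 doubted barcodes. Interferon-stimulated genes stood at 1422 CPM in WT (973 to 2008), 3520 in mgR (3418 to 3624) and 1859 in mgR-LOS (1371 to 2465) or 1261 (735 to 2019) without those 2, with *Ifi27l2a* the most abundant at 622, 1828 and 426 CPM (371 in mgR-LOS without the 2). Activation genes stood at 5290, 5474 and 12198 CPM, but without the 2 doubted barcodes mgR-LOS was at 4674 (3592 to 5980), with 63 of its 315 UMIs left. Heat shock genes also fell, from 6971 to 964 CPM, in mgR-LOS when the 2 were left out. In the mgR B cells *Hspa8* of that list alone stood at 1431 CPM.

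Cytokine RNA in the mgR B cells was mostly *Ltb*, the lymphotoxin chain that supports lymphoid tissue, at 406 CPM, and T cells held 527. *Tnf* stood at 31.1 CPM in 15 barcodes, *Il10* at 7.0 in 6 and *Il6* at 20.2 in 5, and macrophages held 598, 173 and 33.2 CPM. The receptor genes that losartan's target comes from were not seen in the mgR B cells: *Agtr1a* and *Agtr1b* had no UMI among the 1284317 of the mgR B cells, which allows up to 2.34 CPM, and smooth muscle barcodes held 1.98 CPM of *Agtr1a*, a level that no UMI at this depth does not exclude. In mgR-LOS, *Agtr1a* had 1 UMI, in 1 of the 2 doubted barcodes. The immediate early genes *Fos*, *Jun* and *Egr1* were lower in mgR B cells than in the other barcodes, at 0.16, 0.21 and 0.18 times their level, or 0.23, 0.31 and 0.27 times under the other scaling. They belong to a list of 16 activation genes, of which 5 were at least 4-fold lower, close to the 25% of all genes. In that list 2 genes, *Cd69* and *Cd86*, were at least 4-fold higher, and under the other scaling only *Fos* was still called lower.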

How the data were processed

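Single-cell RNA was measured with the Chromium 3-prime v3.1 chemistry. The deposited values were raw UMI counts for 32285 genes in 7858 (WT), 10657 (mgR) and 14663 (mgR-LOS) barcodes. Cell Ranger 5.0.1 made WT and mgR and 6.0.1 made mgR-LOS per the file headers, whereas the submitters' processing notes list 6.0.1, on mm10 (GRCm38).

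The cell filter kept 5361, 8076 and 12721 barcodes that had 600 to 5000 genes and mitochondrial UMIs of 10% or less. B cells were taken by the thresholds in the text, with no clustering. An artificial-neighbor doublet score (25% artificial doublets, 10 principal components, a 1% neighborhood, 0.8% called per 1000 barcodes) called 4.29, 6.46 and 10.2% of kept barcodes; these stayed in except in an alternative.

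Levels are summed UMIs per 1000000 with exact Poisson intervals, shares have Clopper-Pearson intervals and ratios have exact conditional binomial intervals, all at 95%. Cells of a library are not replicates, and a pool of mice is 1 sample. A count of 0 was read as at most 3 counts. Shares of barcodes with a UMI were compared after thinning to 1000 UMIs. T cells and macrophages held no *Cd79a* or *Cd79b* UMI, and smooth muscle barcodes had at least 300 contractile UMIs per 10000. The ratio method was tested on simulated data.

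Named genes were members of 34 lists (362 genes matched and 1 did not), the 15 highest ratios at 100 CPM or more in B cells, the 10 most abundant genes without mitochondrial and ribosomal protein genes, and the 5 most frequent V genes. Others, such as *Crip1* and *Klf2*, were named after their values were seen. Some genes that the rule names are not reported here. The members and lists were chosen with earlier results of these data known. Alternatives changed the cell filter, the B cell thresholds, the doublets, the chain calls, the gene filter, the fold, the scaling and the barcodes compared. Python 3.11.15 was used with numpy 2.4.6, scipy 1.17.1, pandas 2.3.3, scikit-learn 1.9.0 and matplotlib 3.10.9. V exons and positions came from GENCODE M21.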

Additional observations from a re-analysis of the deposited data

Results flagged for a closer look

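These sets lie outside the B cell definition and carry B lineage RNA. In mgR, 4 kept barcodes with at least 100 *Jchain* UMIs were not B cells by the rule, and WT and mgR-LOS held 0 such barcodes. A further 17 mgR barcodes met the B cell thresholds but failed the cell filter, 15 of them through mitochondrial UMIs and 6 through few genes, against 0 in WT and in mgR-LOS. Their median depth was 1341 UMIs, and 13 had an *Ighm* and 14 an *Ms4a1* UMI. The limits on other lineages set aside 43 kept mgR barcodes with enough *Cd79a* and *Cd79b*, of which 25 had an *Ighm*, 26 an *Igkc* and 25 an *Ms4a1* UMI and 10 were called doublets. In mgR-LOS the limits set aside 8, of which 4 had an *Ighm*, 2 an *Igkc* and 1 an *Ms4a1* UMI and 4 were called doublets, and in WT 0.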

How the results depend on the processing

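Of the alternatives, 46 values stayed within the intervals or within 1.5 times the count, and 32 did not; the cause was not tested beyond what each setting changes. The B cell share of mgR was 1.47% with mitochondrial UMIs at 5% or less, 2.49% without the limits on other lineages and 7.86% of barcodes with a *Ptprc* UMI. That of mgR-LOS was 0.0268, 0.126 and 0.478% under these settings and 0.0263% with called doublets removed, and that of WT was 2.86% of *Ptprc* barcodes. In mgR, calling a chain from more than 50% of the UMIs (chosen after seeing the data) gave 86.1% kappa and 12.03% lambda, asking for 5 UMIs gave 86.7% IgM or IgD, and 5% mitochondrial UMIs gave 0% switched. Genes at least 4-fold higher numbered 486 without mitochondrial, ribosomal, globin and immunoglobulin genes, 421 and 70 at 20 and 200 CPM, 567 and 140 at 2-fold and 8-fold, and 99 against immune barcodes only. Lower genes numbered 1554 and 252 at 20 and 200 CPM, 1321 at 2-fold and 441 against immune barcodes. At 2000 UMIs, 91.6% of mgR B cells had *Cd79a*, 79.9% *Ms4a1*, 33.8% *Ighd* and 75.3% *S100a6*. Without the barcodes rich in *Jchain* (chosen after seeing the data), *Igkc* stood at 5414 CPM, *Ighm* at 2230, *Cd74* at 7679 and *Cd79a* at 1564. Without the 2 doubted barcodes (also chosen after seeing the data), *Cd74* in mgR-LOS stood at 7419 and *Vpreb3* at 964 CPM. Also chosen after seeing the data were the removal of like barcodes in every library, the share ratios without called doublets, *Vpreb3* without called doublets, and the lists without rule genes or under the other scaling. The 6 alternatives for gene ratios between the B cells of mgR and those of WT or mgR-LOS were not run, because WT and mgR-LOS held fewer than 10 B cells each. No paired analysis was possible because each condition was 1 pooled library. Mice, library and condition cannot be told apart, and with 5 and 8 B cells in WT and mgR-LOS only large differences could be seen.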

Other observations

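Other lists were read in the mgR B cells against the other kept mgR barcodes. Of 11 interferon-stimulated genes tested, 3 were at least 4-fold higher, *Ifi203* and *Zbp1* among them, and 0 lower, with a median log2 ratio of 1.09; over all genes tested, 7.07% were higher and 25% lower. The interferon list summed to 3520 CPM in B cells, 4634 in T cells, 5762 in macrophages and 143 in smooth muscle barcodes. Of 16 activation genes tested, 2 were higher and 5 lower, close to the 25% of all genes, with a median log2 ratio of -1.08. Under the scaling without mitochondrial, ribosomal, globin and immunoglobulin genes, 3 were higher and 1 was lower, with a median of -0.53. Of 8 heat shock genes 0 were higher and 1 lower, with a median of -0.12 that turned to 0.44 under that scaling. Of 6 cycling genes tested, 4 were higher, but these rest on the 10 cycling barcodes. In the others low in *Jchain*, *Mki67*, *Top2a*, *Birc5* and *Stmn1* stood at 5.91, 7.89, 3.94 and 8.87 CPM, against 15.8, 15.8, 7.54 and 34.3 in the other kept barcodes. The 10 had been chosen by *Mki67* and *Top2a*, and cycling barcodes were not taken out of the other side. The lower values therefore show nothing about the remaining B cells. Of 9 plasma cell genes tested, 4 were higher, among them *Jchain*, which stood at 16.04 CPM without the 6 barcodes rich in it. With CPM over all genes, only *Ifi203* of the genes called higher in these lists held at least 50 CPM in the other kept barcodes. The rest were tested through the B cells alone, so their counts are no result about the lists.

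Lists that divide B cells into subsets held few genes that could be tested. Against the 7.07% of all genes higher and the 25% lower, counts of 1 in 3 or 4 genes say little. All 5 follicular genes tested were at least 4-fold higher. Of 4 marginal zone genes tested, *Plac8* was higher and 2 were lower. Of 4 B-1 genes, 1 was higher (*Plscr1*) and 1 lower (*Cd9*). *Vpreb3* was the 1 gene tested of 12 on the immature list, and it was higher, at 69.3 CPM in B cells and 0.14 elsewhere. Of the 3 germinal center and the 3 memory genes tested, 1 each was higher and 1 each was lower. Except for *Plac8*, each gene called higher in these subset lists held under 50 CPM in the other kept barcodes. These genes were thus tested through the B cells alone, so their calls are no result about the lists.

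Among the 10 most abundant genes of the mgR B cells were *Igkc* (33376 CPM), *Gm42418* (19387), *Tmsb4x* (13852), *Ighm* (11068), *Malat1* (10402), *Tpt1* (7854), *Fau* (7404), *Cd74* (7238) and *Actb* (5317). *Gm42418*, *Tmsb4x* and *Actb* stood at 1.06, 0.93 and 0.99 times their level in the other kept barcodes, and *Malat1* at 0.52 times.

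Among the mgR B cells, 13 barcodes held at least 10 UMIs of *Lyz2*, *Fcer1g*, *Tyrobp* and *Cd14* together, and 79 held none. The 13 had a median of 15254 UMIs and 0 were called doublets.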
